A study of Canis lupus familiaris with 9 samples.

Results

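The genes described here are 7 genes of the circadian clock (ARNTL, ARNTL2, CLOCK, PER1, PER2, CRY1 and NR1D2) together with ARNT2, a relative of the clock activators, and NFIL3, a repressor that works at clock-controlled promoters. They were taken by gene symbol, and all 9 were found once each among the 28008 genes of the files. The set was drawn up because ARNTL2, ARNT2 and NFIL3 stood out in these same libraries. The lymphoma and control values of all 9 genes, and the breed values of NFIL3, are therefore a description, and no p-value is attached to any of the 9.

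RNA sequencing was done on 6 canine CD4+ peripheral T cell lymphomas (PTCL), cancers of mature T cells, and on 3 samples of normal CD4+ T cells. The Boxer lymphomas came from castrated males aged 6 years (libraries 1 and 3) and a spayed female aged 8 years (library 2). The other-breed lymphomas came from a spayed female Cavalier King Charles Spaniel aged 3 years (library 1), a spayed female Rhodesian Ridgeback aged 4 years (library 2) and a castrated male Collie aged 11 years (library 3). For the controls, CD4+ T cells of healthy hounds were sorted; these dogs were female, not neutered and 1 year old. Breed, age, neutering and in part sex thus go with disease, and their effects cannot be told apart. No sorting is named for the lymphomas, and the hour of collection, which bears on any clock gene, was not known here. No label states that the controls were separate dogs, so p-values speak only for the spread among these libraries.

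The molecular clock is a feedback loop of transcription. The activator CLOCK pairs with ARNTL (also called BMAL1) or with its close relative ARNTL2 (BMAL2), and the pair switches on the PER, CRY and NR1D genes. PER and CRY proteins then block the activators, NR1D proteins repress ARNTL, and ROR proteins activate it. NFIL3 (E4BP4) represses the promoter elements that DBP, TEF and HLF activate, and in mouse lymphocytes it is also known as a regulator of innate lymphoid cell development and of cytokine genes. ARNT2 belongs to the same bHLH-PAS protein family as CLOCK and ARNTL, is best known from the nervous system and serves as a partner for other members of that family. It is not a core clock component.

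The libraries held 11710623 to 18488468 recovered reads. Values are normalised reads, the authors' read counts divided by 1 size factor per library. The 11 measured T cell markers summed to 57707 to 99272 normalised reads in lymphomas, against 85424 to 89420 in controls, with none at 0 in any library, and CD4 itself was not analysed here. Macrophage markers summed to 923 to 21296 in lymphomas and 132 to 202 in controls, and proliferation markers to 11938 to 33123 and 1866 to 2134. Other-breed lymphomas 1 and 2 stood apart on the second principal component (14.2% of the variance), at -120 and -78.2, against 11.3 to 58.8 for the remaining libraries. In such bulk samples, fewer cells of a type and less RNA per cell cannot be told apart.

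Among the activators, both partners of CLOCK were lower in every lymphoma than in any control, ARNTL2 by far the more. ARNTL2 (ENSCAFG00000011089) had 18.7, 10.4 and 1.04 normalised reads in Boxer lymphomas 1 to 3, 3.53, 6.31 and 127 in other-breed lymphomas 1 to 3, and 651, 443 and 665 in the controls. The lymphomas averaged 27.9 ± 49.1 (SD, n = 6) and the controls 586 ± 125 (SD, n = 3). The fitted difference was -5.69 ± 1.06 (SE) on the log2(value + 1) scale, where changes of genes with few reads come out too small. Other-breed lymphoma 3 held most of the ARNTL2 reads found in the lymphomas and was still below all controls. Without it the difference was -6.40. The reads behind the lowest value were 1 in Boxer lymphoma 3, so its exact level is limited by depth.

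ARNTL (ENSCAFG00000008095), the main partner of CLOCK, had 111, 90.1 and 152 normalised reads in Boxer lymphomas 1 to 3, 293, 181 and 118 in other-breed lymphomas 1 to 3, and 687, 519 and 569 in the controls. Its means were 157 ± 73.8 in lymphomas and 591 ± 85.9 in controls, a difference of -2.01 ± 0.35 on the log2 scale. The groups did not overlap, and the spread among the 6 lymphomas was much smaller than for ARNTL2. With age as a covariate the differences were -1.16 for ARNTL and -8.63 for ARNTL2. All controls were 1 year old, so that slope came from the lymphomas alone.

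CLOCK (ENSCAFG00000002140), the shared partner, was uneven among the lymphomas rather than uniformly low. It had 24.6, 155 and 89.5 normalised reads in Boxer lymphomas 1 to 3, 11.8, 140 and 94.5 in other-breed lymphomas 1 to 3, and 139, 118 and 131 in the controls. Boxer lymphoma 1 and other-breed lymphoma 1 lay far below the controls, Boxer lymphoma 3 and other-breed lymphoma 3 somewhat below, and the remaining 2 lymphomas at or above the highest control. The means were 85.8 ± 58.2 and 129 ± 10.6, and the fitted difference was -1.05 ± 0.76, which became -0.59 without other-breed lymphoma 1 and -2.36 with age as a covariate.

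**Figure D1:**
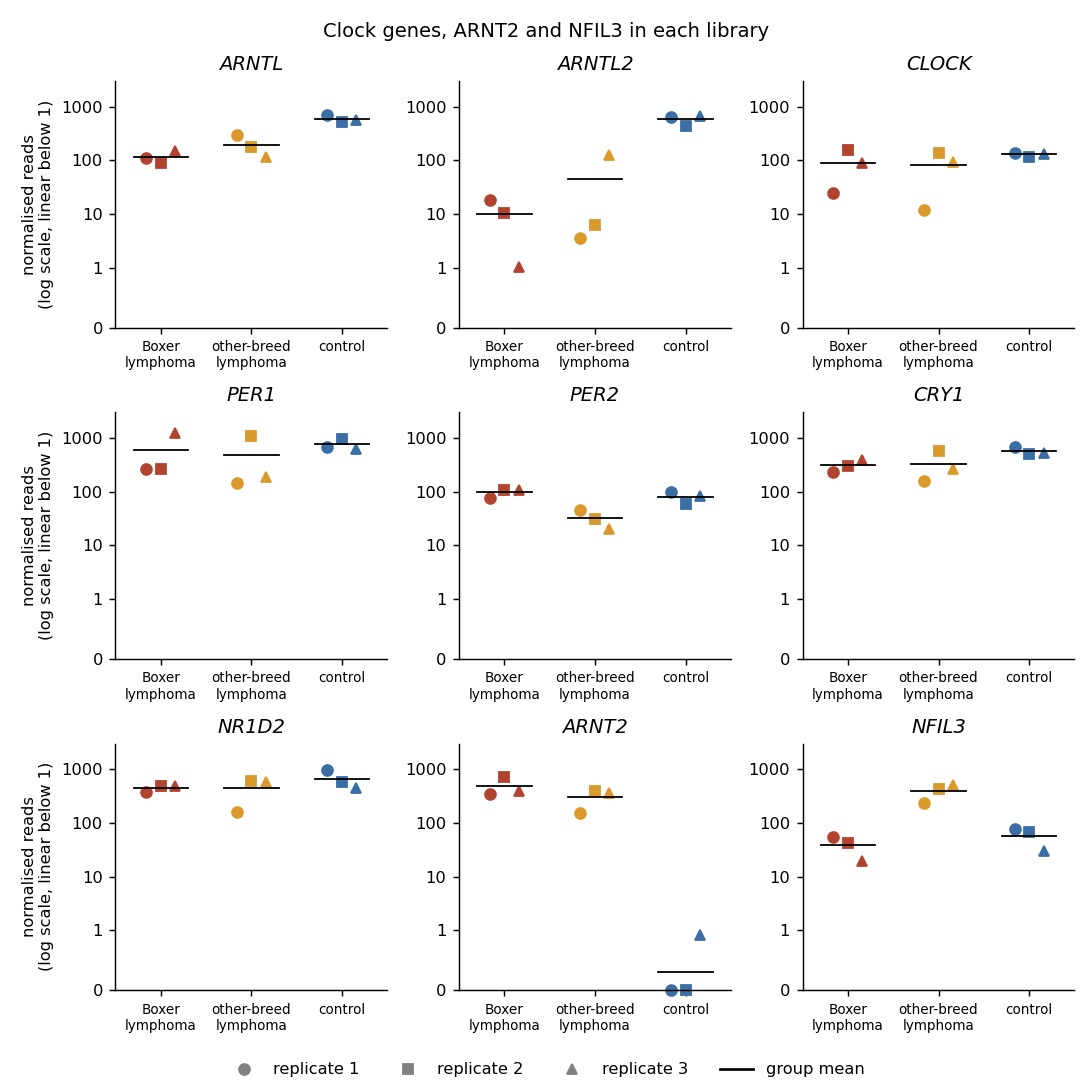
Normalised reads of each gene (vertical axis, log scale that is linear below 1) in 3 Boxer lymphomas, 3 other-breed lymphomas and 3 controls; each point is 1 library and each bar a group mean. ARNTL and ARNTL2 are lower in every lymphoma than in any control, ARNT2 reaches 155 to 728 in lymphomas against at most 0.926 in controls, and NFIL3 is high in the other-breed lymphomas.

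A ratio of 2 genes within a library does not depend on the size factor, and gene length cancels when libraries are compared. The reads of ARNTL2 were 16.8%, 11.6% and 0.685% of those of ARNTL in Boxer lymphomas 1 to 3. In other-breed lymphomas 1 to 3 they were 1.20%, 3.49% and 108%, and in the controls 94.8%, 85.2% and 117%. Thus 5 of the 6 lymphomas lay below all controls, and other-breed lymphoma 3, in which both genes were low, lay within the control range. For CLOCK the ratio to ARNTL was 22.1%, 172% and 58.9% in Boxer lymphomas, 4.02%, 77.3% and 80.2% in other-breed lymphomas, and 20.3%, 22.7% and 23.0% in controls. It was above the controls in 4 lymphomas, within their range in Boxer lymphoma 1 and below them in other-breed lymphoma 1.

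**Figure D2:**
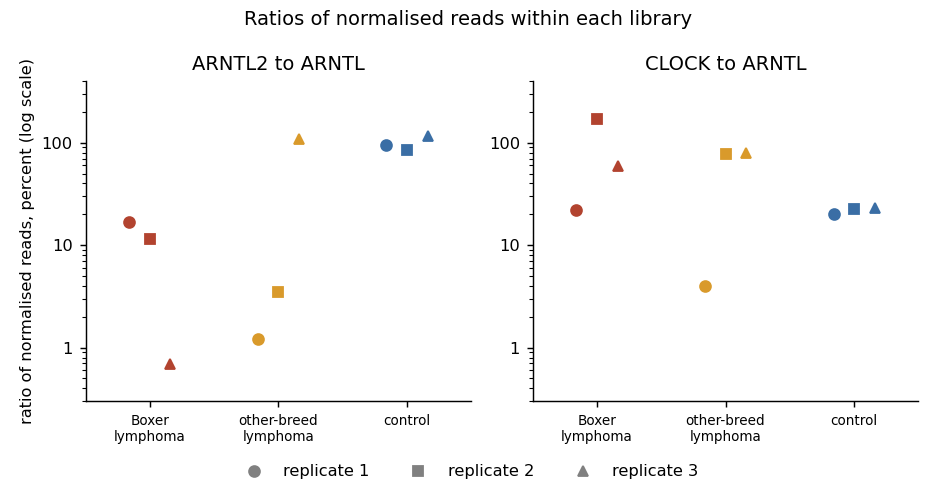
Normalised reads of ARNTL2 and of CLOCK as a percentage of those of ARNTL in the same library (vertical axes, log scale), by group; each point is 1 library. The ARNTL2 ratio is 0.685% to 16.8% in 5 lymphomas, 108% in other-breed lymphoma 3 and 85.2% to 117% in the controls, while the CLOCK ratio spans 4.02% to 172% in lymphomas.

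PER1, PER2, CRY1 and NR1D2, the repressors of the loop among the 9 genes, overlapped between lymphomas and controls. PER1 (ENSCAFG00000016984) had 259, 269 and 1225 normalised reads in Boxer lymphomas 1 to 3, 145, 1101 and 190 in other-breed lymphomas 1 to 3, and 684, 963 and 620 in the controls. It formed a split, with 4 lymphomas below all controls and 2, Boxer lymphoma 3 and other-breed lymphoma 2, above them all. The means were 532 ± 493 in lymphomas and 756 ± 182 in controls, with a fitted difference of -0.998 ± 0.666.

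CRY1 (ENSCAFG00000001797), the partner of PER proteins, had 236, 300 and 394 normalised reads in Boxer lymphomas 1 to 3, 157, 580 and 263 in other-breed lymphomas 1 to 3, and 672, 493 and 526 in the controls. It was below all controls in 5 of 6 lymphomas, and other-breed lymphoma 2 lay within the control range (difference -0.92 ± 0.36). NR1D2 (ENSCAFG00000005754), which encodes the nuclear receptor REV-ERB beta, had 376, 489 and 482 in Boxer lymphomas, 157, 606 and 573 in other-breed lymphomas, and 965, 572 and 441 in controls. Its groups overlapped widely (-0.60 ± 0.42, and -1.37 with age as a covariate). Other-breed lymphoma 1 had the lowest value of all 9 libraries for CLOCK, PER1, CRY1 and NR1D2, while its ARNTL was the highest among the lymphomas.

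PER2 (ENSCAFG00000012433) differed by breed group more than by disease. It had 77.3, 107 and 105 normalised reads in Boxer lymphomas 1 to 3, 44.7, 30.8 and 20.2 in other-breed lymphomas 1 to 3, and 98.3, 59.4 and 82.4 in the controls. The Boxer lymphomas overlapped the controls, and the other-breed lymphomas lay below both. The means were 96.5 ± 16.7 in Boxer lymphomas, 31.9 ± 12.3 in other-breed lymphomas and 80.0 ± 19.5 in controls (SD, n = 3 each). Boxer lymphomas exceeded other-breed lymphomas by 1.62 ± 0.51 on the log2 scale.

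ARNT2 (ENSCAFG00000013922) was close to absent in normal CD4+ T cells and present in every lymphoma. It had 346, 728 and 386 normalised reads in Boxer lymphomas 1 to 3, 155, 386 and 354 in other-breed lymphomas 1 to 3, and 0, 0 and 0.926 in the controls. The controls held 1 read among them and the lymphomas 2502, a ratio of 1210 after scaling, with an exact 95% interval of 217 to 47812 that covers counting error only. On the log2(value + 1) scale the difference was 8.17 ± 0.49. The lymphomas spanned less than a factor of 5 and did not separate by breed, with means of 487 ± 210 in Boxer and 299 ± 125 in other-breed lymphomas.

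Markers of other cell types also varied among the lymphomas. The 14 fibroblast and stroma markers summed to 4508, 3849 and 15244 normalised reads in Boxer lymphomas 1 to 3, 3506, 405 and 13165 in other-breed lymphomas 1 to 3, against 2395 to 2839 in controls, where THY1 alone gave 2304 to 2810. THY1 is counted in the lymphoma sums too, and its share of them is not given. The 11 endothelial markers summed to 1959, 3442 and 5335 in Boxer lymphomas, 1202, 431 and 8010 in other-breed lymphomas, against 643 to 998 in controls. By limma 8 of the 14 stroma markers and 4 of the 11 endothelial markers were higher in lymphomas, against 19.4% of all genes tested. In other-breed lymphomas 1 and 2, 3 and 2 of the stroma markers and 3 and 3 of the endothelial markers were at 0, while none was at 0 in the other 4 lymphomas. Other-breed lymphoma 2, with the lowest sums of both lists, had 386 of ARNT2, and other-breed lymphoma 1, next lowest in both, had the lowest ARNT2 of the lymphomas at 155. The macrophage list was at 923 and 3478 in other-breed lymphomas 1 and 2 and at 6165 to 21296 in the other 4 lymphomas. The 9 B cell markers summed to 1844, 1741 and 719 in Boxer lymphomas 1 to 3 and 1738 to 2004 in controls. In other-breed lymphomas 1 to 3 they summed to 6394, 506 and 2502, so other-breed lymphoma 1 had the highest B cell sum of all libraries. The part of these cell types in the ARNT2 reads was not tested.

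NFIL3 (ENSCAFG00000002169) separated the lymphomas by breed group. It had 54.4, 41.7 and 19.8 normalised reads in Boxer lymphomas 1 to 3, 231, 430 and 516 in other-breed lymphomas 1 to 3, and 76.4, 68.5 and 29.6 in the controls. The means were 38.6 ± 17.5 in Boxer lymphomas, 392 ± 146 in other-breed lymphomas and 58.2 ± 25.1 in controls (SD, n = 3 each). Boxer lymphomas overlapped the controls, and all 3 other-breed lymphomas lay above every other library. The difference between Boxer and other-breed lymphomas was -3.35 ± 0.54 on the log2 scale. Set against controls, the fitted value was -0.58 for Boxer lymphomas alone and 2.76 for other-breed lymphomas alone, so the pooled value of 1.09 ± 1.00 describes neither group. Neutrophil marker sums separated the groups in the same order within the lymphomas, at 246, 179 and 306 normalised reads in Boxer lymphomas 1 to 3, 404, 386 and 541 in other-breed lymphomas 1 to 3, against 20.5 to 38.0 in controls. Of the 5 neutrophil markers tested, all 5 were higher in lymphomas than in controls by limma, against 19.4% of all genes tested. Between the breed groups 3 were lower in Boxer lymphomas without overlap, against 5.7% of all genes tested, with 0 called. Macrophage marker sums overlapped between the breed groups, at 6165 to 12845 in Boxer and 923 to 21296 in other-breed lymphomas. The stroma, endothelial and B cell marker sums also overlapped between the breed groups. The part of these cell types in the NFIL3 reads was not tested.

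**Figure D3:**
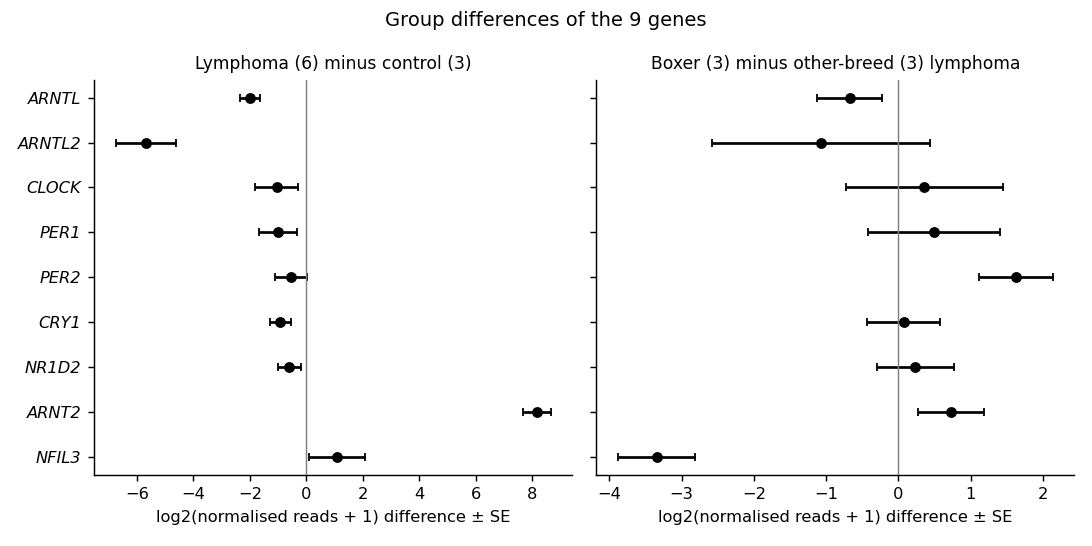
Fitted differences of log2(normalised reads + 1) with their standard errors for each of the 9 genes (vertical axis); left, 6 lymphomas minus 3 controls, right, 3 Boxer minus 3 other-breed lymphomas. ARNTL2 (-5.69) and ARNT2 (8.17) lie farthest from 0 on the left, and NFIL3 (-3.35) and PER2 (1.62) on the right.

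Calls by limma are not given for the 9 genes, as no p-value is attached to them. Over all 15977 genes tested, limma called 19.4% higher and 15.7% lower, 35% in all, with the threshold for the adjusted p set at 0.05. An unadjusted p under 0.05 was reached by 45.9% of them. In 3 of the 9 genes the groups did not overlap, ARNT2 upwards and ARNTL and ARNTL2 downwards. Over all genes this held for 18.5% upwards and 17.2% downwards, 35.8% in all. Because the set was chosen on this contrast, nothing is read from these counts. The median difference was -0.92 for the 9 genes and 0.05 for all genes.

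The rest of the clock loop holds genes that were not used to choose the set. Of 13 such genes found, 10 had enough reads to be tested, and 3 fell, 0 rose and 7 did not pass by limma at an adjusted p under 0.05. Over all genes tested 15.7% were lower and 35% were called in either direction. The 3 of 10 in the loop lie above the share of lower calls and below the share of all calls. With so few genes, nothing is read from this count. The median difference was -0.79 in the loop and 0.05 over all genes. CRY2, the second cryptochrome, had 297, 211 and 206 normalised reads in Boxer lymphomas 1 to 3, 477, 159 and 290 in other-breed lymphomas 1 to 3, and 835, 696 and 668 in the controls, without overlap. Its log2 difference of -1.51 ± 0.31 passed limma (adjusted p = 0.00503). With age in the model it was -1.38 and did not pass, at an adjusted p of 0.104, the highest of 24 alternatives, of which the lowest was 2.48e-04.

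RORA, an activator of ARNTL, was graded across the groups. It had 26.3, 53.1 and 66.6 normalised reads in Boxer lymphomas 1 to 3, 372, 121 and 181 in other-breed lymphomas 1 to 3, and 718, 571 and 502 in the controls. No lymphoma reached a control, and no Boxer lymphoma reached an other-breed lymphoma. The lymphomas were lower by limma (-2.61 ± 0.69, adjusted p = 0.0154). RORA no longer passed when control 1 (-2.47) or control 2 (-2.63) was left out or when sex (-2.13) or age (-2.14) was in the model. Its adjusted p ran from 5.96e-04 to 0.228 over 24 alternatives.

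HLF, one of the activators that NFIL3 opposes, was at 5.95, 12.3 and 30.2 normalised reads in Boxer lymphomas 1 to 3, 71.8, 34.7 and 109 in other-breed lymphomas 1 to 3, and 212, 128 and 117 in the controls. It fell by 2.27 ± 0.80 (limma adjusted p = 0.0492), and it no longer passed under 14 of 24 alternatives, among them the removal of any Boxer lymphoma (-2.27 to -1.84), of other-breed lymphoma 2 (-2.31) or of any control (-2.43 to -2.01). The adjusted p ran from 0.00457 to 0.212 over all of them. The related activators DBP (-0.53 ± 0.29, limma adjusted p = 0.173) and TEF (-0.24 ± 0.26, limma adjusted p = 0.486) did not pass. The same held for the CLOCK relative NPAS2 (-1.02), for the repressors NR1D1 (-0.83), PER3 (-0.32) and CIART (-0.76), and for BHLHE40 (0.16). With Boxer lymphomas alone against controls NR1D1 was at -1.28 and passed (limma adjusted p = 0.0418). RORB and BHLHE41 had too few reads to be tested.

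**Figure D4:**
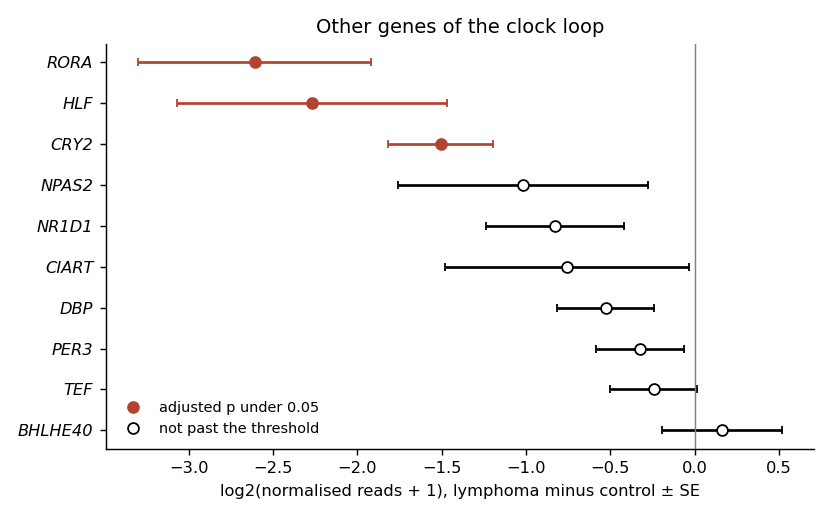
Fitted differences of log2(normalised reads + 1), 6 lymphomas minus 3 controls, with standard errors, for the 10 tested genes of the rest of the clock loop; filled points passed an adjusted p of 0.05 by limma. RORA, HLF and CRY2 passed and BHLHE40 is the only one above 0, at 0.16; with Boxer lymphomas alone against controls it is at -0.16.

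Of 12 tested genes of kinases, ubiquitin ligases and related enzymes that set the stability of clock proteins, 0 passed by limma in either direction, and their median difference was -0.01. At an unadjusted p under 0.05 there were 2 higher and 2 lower. Of all genes tested 35% passed and 45.9% had an unadjusted p under 0.05. Higher calls appeared under 9 of 24 alternatives, 1 by edgeR, 2 by DESeq2 and 1 without any 1 of the other-breed lymphomas among them, and 1 lower call appeared under 3. The nearest to the threshold was the kinase gene GSK3B (0.43 ± 0.16, limma adjusted p = 0.0571).

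Of the other bHLH-PAS genes, to which ARNT2 belongs, 6 of 12 found could be tested. By limma 3 fell and 0 rose, against 15.7% lower and 19.4% higher among all genes tested. The lower calls became 0 without control 2 or control 3 and with sex as a covariate. A higher call, 1 in each case, appeared under 4 of 24 alternatives, among them Boxer lymphomas only. ARNT, the close relative of ARNT2 that is expressed in most tissues, moved the other way from ARNT2. It averaged 1067 ± 199 normalised reads in lymphomas and 1760 ± 129 in controls and fell by 0.74 ± 0.19 (limma adjusted p = 0.013). Its call ended without control 2 (-0.73) or control 3 (-0.70) and with sex (-0.56) or age (-0.59) as a covariate. The coactivator genes NCOA1 (-0.78, limma adjusted p = 0.0442) and NCOA3 (-0.78, limma adjusted p = 0.0411) also fell, and these calls ended under 11 and 16 of 24 alternatives, including the removal of any 1 control. HIF1A, the hypoxia factor that pairs with ARNT, did not pass, with 3179 ± 546 normalised reads in lymphomas, against 2307 ± 314 in controls (0.45 ± 0.18, limma adjusted p = 0.0713).

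Of 13 tested genes induced by the hypoxia factors, 2 rose and 3 fell by limma, with a median difference of -0.42. That share is close to the 19.4% higher and 15.7% lower among all genes. The angiogenic factor gene VEGFA rose by 3.63 ± 0.99 and EGLN1, an oxygen-sensing hydroxylase gene, by 0.45 ± 0.14, while MXI1 (-2.07), KDM3A (-0.80) and ANKRD37 (-1.07) fell. The call of MXI1 held under all 24 alternatives and that of KDM3A under 23. VEGFA no longer passed under 6 of 24 alternatives. These included leaving out control 2 or control 3 and having sex (2.95) or age (1.47) in the model. ANKRD37 no longer passed under 5, among them without control 1 or control 3. EGLN1 no longer passed under 9, among them without Boxer lymphoma 3, control 2 or control 3.

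Immediate early genes are switched on within minutes of cell activation or handling, and PER1 responds to such stimuli in a similar way. The immediate early genes were lower in the lymphomas. Of 19 tested, 13 fell and 0 rose by limma, with a median difference of -1.89. Among all genes tested 15.7% were lower and 19.4% higher, and the median difference was 0.05. FOSB fell by 5.63, JUNB by 3.16, JUND by 1.70 and KLF6 by 1.61, and these 4 calls held under all 24 alternatives. The list summed to 8278 to 24374 normalised reads in the lymphomas. In controls 1 to 3 it summed to 108667, 126198 and 42380, so it was uneven among the sorted samples. Its part in the values of PER1, ARNTL2 and NFIL3 was not tested. PER1 had the same order among the controls as this sum, at 684, 963 and 620 in controls 1 to 3. Of the controls, ARNTL2 was highest in control 3, where the sum was lowest, and NFIL3 was lowest there.

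The comparison of Boxer with other-breed lymphomas, in which controls were left out, called 0 of 15112 genes by limma in either direction. At an unadjusted p under 0.05 there were 753 genes (4.98%). On recovered reads edgeR called 0, and DESeq2 called 44 higher and 58 lower. Among the 9 genes, PER2 was higher and NFIL3 lower in Boxer lymphomas without overlap, against 4.99% and 5.7% of all genes tested, 10.7% in all. The remaining members overlapped between the breed groups, with differences from -1.07 ± 1.504 for ARNTL2 to 0.73 ± 0.46 for ARNT2. Of the 9 tested genes of the rest of the loop, RORA (-2.12 ± 0.59), HLF (-2.21 ± 0.79) and TEF (-0.44 ± 0.35) were lower in every Boxer lymphoma than in any other-breed lymphoma, with limma adjusted p of 0.881, 0.881 and 0.885. None of these passed after adjustment over all genes.

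The genes whose profile over the 9 libraries was most like that of a member were found by the root mean square difference of log2(value + 1), each gene being centred on its own mean. Nearest to ARNTL2 were TRAV21 (0.81), TRPS1 (0.81) and TRBV15 (0.86). TRAV21 and TRBV15 are T cell receptor V segments, whose near-identical relatives can share reads. TRPS1, a zinc finger transcription factor gene, had 14.6 to 225 normalised reads in lymphomas, with the highest value in other-breed lymphoma 3 as for ARNTL2, and 868 to 1151 in controls. Nearest to ARNT2 were FSCN1 (0.58), SHROOM2 (0.73) and SDK1 (0.80). FSCN1, which encodes the actin-bundling protein fascin, had 1149 to 3026 normalised reads in lymphomas and 9.91 to 12.3 in controls. Nearest to NFIL3 were SPINT2 (0.84), KLK11 (0.92) and ZDHHC23 (0.97). SPINT2, a protease inhibitor gene, had 326 to 770 normalised reads in Boxer lymphomas, 1046 to 2672 in other-breed lymphomas and 441 to 509 in controls.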

How the data were processed

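The submitters' processing notes list TopHat2, HTSeq, DESeq2 and the dog build CanFam3.1, with no versions given in the sources used here. The deposited values are a normalised signal: for every gene, the reads the authors counted over a size factor of that library. All values (100%) were whole numbers of reads within 0.01 once multiplied by that factor, so the reads could be recovered. The factors equalled recomputed median-of-ratios size factors. No gene coordinates or strand setting were used here, so overlapping antisense genes may share reads.

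Genes reaching 10 in 3 or more of the compared libraries were tested with limma 3.58.1 (R 4.3.3) on log2(value + 1), with a mean-variance trend and Benjamini-Hochberg adjustment over all genes tested. The edgeR 4.0.16 quasi-likelihood test and DESeq2 1.42.0 were run on recovered reads as alternatives. Intervals of pooled reads are exact binomial. The 9 genes, the lists and the tests were chosen with earlier results of these data known. From a list other than the clock loop, up to 4 called genes per direction with the smallest p are named, as are all genes of the loop, the 3 nearest profiles and examples singled out after their values were seen (GSK3B, HIF1A and THY1).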

Additional observations from a re-analysis of the deposited data

Results flagged for a closer look

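ARNTL2 in other-breed lymphoma 3 stood far from the other lymphomas, at 127 normalised reads against 1.04 to 18.7 in the other 5. The gap to the nearest of them was 0.86 of the whole range of the 6 lymphomas, above the 95% critical value of 0.625. This gap was taken on normalised reads, and the check was not made on the log2 scale. The same library was above 5 lymphomas and below all 3 controls. Of 19 genes examined in this way, the 9 genes and the tested rest of the clock loop, this was 1, which is about the number that chance gives, since chance flags about 1 in 20 groups. ARNTL2 was also among the genes chosen because their values stood out in these libraries, so the gap is a description and not a test.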

How the results depend on the processing

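Genes higher in lymphomas numbered 3092 and lower genes 2504, and 1048 and 885 with age as a covariate. Leaving out 1 library gave 1866 to 3291 higher and 1194 to 2605 lower genes, the lowest counts without control 2. Lower genes of the rest of the clock loop numbered 3, 1 with sex and 0 with age as a covariate, and 1 to 3 without 1 library (1 without control 1 or control 2). They numbered 4 with Boxer lymphomas only. For Boxer against other-breed lymphomas the counts of 0 and 0 became 44 and 58 by DESeq2, 0 and 2 with a pseudocount of 5, 2 and 0 in a model that kept the controls, and 0 to 1 in each direction without 1 library (1 without other-breed lymphoma 2 or 3). PER3 turned to 0.074 with age and BHLHE40 to -0.16 with Boxer lymphomas only; neither had passed. The cause was not tested. DESeq2 gave no p for ARNTL2.

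The ARNTL2 difference was -4.40 (DESeq2) to -8.63 (age) on the log2 scale over 24 alternatives, and ARNT2 higher by 6.10 (pseudocount 5) to 10.07 (DESeq2), a gene near 0 in controls. Without other-breed lymphomas 1 and 2 the differences were -5.21 for ARNTL2, -2.33 for ARNTL, 8.44 for ARNT2 and 0.37 for NFIL3. Other scaling moved the median of all genes by less than 0.1.

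Libraries of the same number come from different dogs, and their deviations from the group means correlated at -0.14 to 0.10 over 9 pairs. With the number as a replicate block, 2752 genes were higher and 2158 lower, 2 genes of the rest of the clock loop were lower, and Boxer against other-breed lymphomas again gave 0 and 0.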
